A study of Mus musculus with 3 samples.

Results

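The clustered protocadherins were taken as the protein-coding genes of GENCODE M21 on mouse chromosome 18 whose symbol starts with *Pcdha*, *Pcdhb* or *Pcdhg*. The rule gave 57 of the 21755 protein-coding genes on the chromosomes of the peak list, with 14 *Pcdha*, 22 *Pcdhb* and 21 *Pcdhg* genes (the symbol *Pcdha11* is carried by 2 of them). Accessible chromatin had been profiled by single-nucleus ATAC-seq, in which a transposase cuts open DNA, in dopaminergic neurons (DNs) of the midbrain ventral tegmental area (VTA). The DNs came from 2 libraries of male C57Bl/6Nl mice, 1 from an age of 7 weeks and 1 from 9 weeks, and a single peak list pools both. The list holds 55326 peaks of 500 bp on 19 autosomes and X, with no score or count per peak, so the depth behind a single peak is unknown and no test between samples was possible. A further library of 46C mouse embryonic stem cells, a clonal line, is not analysed here. All positions are in mm10 and counted from 1.

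Clustered protocadherins are cell-surface adhesion molecules that give neurons an identity code, through which branches of the same neuron recognise and avoid each other. Each *Pcdha* or *Pcdhg* gene has its own promoter and large first exon, spliced to constant exons shared by its cluster, whereas a *Pcdhb* protein is encoded by a single exon. A neuron typically uses a few of the alternate promoters, chosen stochastically, whereas the C-type promoters (*Pcdhac1*, *Pcdhac2*, *Pcdhgc3*, *Pcdhgc4* and *Pcdhgc5*) are used more broadly. The DNA loop-anchoring factor CTCF, the cohesin complex, DNA methylation and distal enhancers take part in that choice.

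A promoter open in a small share of the nuclei contributes little to a pooled profile, so the absence of a call does not show that no nucleus had the site open. By the study's count, the DN cluster held few nuclei from each library, so a rarely open promoter rests on very few of them. Of 10 DN markers, 8 had a peak within 500 bp of the gene start (interval 44.4 to 97.5%, which includes the 52.4% of all protein-coding genes), including *Slc6a3*, the dopamine transporter, and *Foxa2* and *Nr4a2*, transcription factors of these neurons. *Th* and *Ddc*, enzymes of dopamine synthesis, had none at the outermost annotated start but held 10 and 18 peaks within the gene. The DN cluster had been selected in the study with accessibility of *Th* and other markers of this list, so that the count does not check the label independently. Of 11 markers of other cells of the tissue, 2 had a peak at the start (18.2%, interval 2.28 to 51.8%), *C1qa* of microglia and *Mbp* of oligodendrocytes. These held 1 and 6 peaks within the gene, *Cx3cr1* of microglia held 9 and *Aldh1l1* of astrocytes 5, and the other 7 held none. The part of other cells in the calls of the clustered protocadherins was not tested.

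Most clustered protocadherin promoters had no peak in DNs. A peak lay within 500 bp of the start in 7 of 57 genes (12.3%, 95% exact binomial interval 5.08 to 23.7%), compared with 52.4% of all protein-coding genes and 60.1% of the other 456 on chromosome 18. Intervals cover counting error only, and neighbouring genes of a cluster are not independent. The count was 3 of 14 for *Pcdha*, 0 of 22 for *Pcdhb* (which allows a share of up to 15.4%) and 4 of 21 for *Pcdhg*. All 5 C-type starts had a peak (interval 47.8 to 100%), and 2 of the 52 alternate starts did (3.85%, interval 0.469 to 13.2%).

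**Figure D1:**
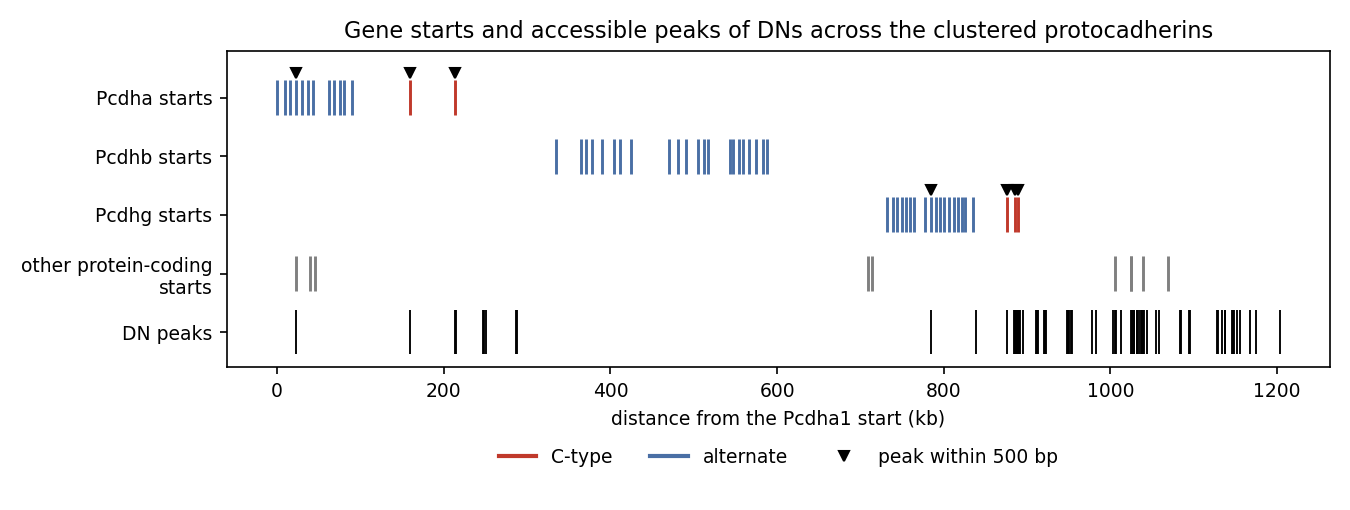
Ticks show gene starts by cluster, the other protein-coding starts and the centres of DN peaks against the distance from the *Pcdha1* start in kb. Triangles mark the 7 starts with a peak within 500 bp, which are all 5 C-type starts and 2 alternate starts, and no peak lies over the *Pcdhb* row.

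Among the C-type genes, *Pcdhac1* starts at position 37090013, and the peak chr18:37089689-37090188 covers that start with its centre 74 bp upstream. *Pcdhac2* starts at 37143503 and had its peak downstream of the start, at chr18:37143653-37144152, with its near edge at 150 bp and its centre at 399 bp, inside the first exon. A further peak, chr18:37144645-37145144, lay in the same exon. By the nearest peak of each member, *Pcdhac2* was the one with a call farthest from its peak.

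*Pcdhgc3* starts at 37806364 under the peak chr18:37806083-37806582, whose centre is 31 bp upstream. The noncoding antisense gene *BC037039* overlaps this peak, so accessibility of the pair could not be told apart. *Pcdhgc4* starts at 37815079, and 2 peaks flanked the start, at chr18:37814432-37814931 and chr18:37815116-37815615. The second of these and 3 more lay in or overlapped its first exon. *Pcdhgc5* starts at 37819513 and had 2 peaks within 500 bp, chr18:37819146-37819645 over the start and chr18:37819892-37820391 in the first exon. Another peak, chr18:37821169-37821668, lay farther into that exon. The starts and first exons of *Pcdhgc4*, a member needed for neuronal survival, and its neighbour *Pcdhgc5* carried 8 of the 14 peaks of the *Pcdhg* cluster. Peaks in this list have a fixed width and do not overlap, so adjacent peaks can belong to a single wide open region.

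The 2 alternate members with a peak were *Pcdha4* and *Pcdhga7*. *Pcdha4* starts at 36952648, and the peak chr18:36952339-36952838 covers the start with its centre 59 bp upstream. The same peak lies within 500 bp of the starts of *Gm42416*, a read-through gene annotated from *Pcdha4* into the *Pcdhg* cluster, and of the noncoding antisense gene *Gm38225*. *Pcdhga7* starts at 37714764 under the peak chr18:37714480-37714979, centred 34 bp upstream, which the antisense gene *Gm37165* overlaps. Both peaks thus lie over more than 1 annotated gene, and the list does not separate these.

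The other 50 alternate members were far from any peak. Within *Pcdha*, the nearest peak centre was 22404 bp from the start of *Pcdha1* (36930184), the first member, 6483 bp from *Pcdha3* and 7851 bp from *Pcdha5*, the neighbours of *Pcdha4*. The distance grew to 67560 bp at *Pcdha12*. Within *Pcdhb*, it was 46647 bp at *Pcdhb1* (37264938) and 196858 bp at *Pcdhb22* (37517871), and it was longest at *Pcdhb15*, with 241189 bp. Within *Pcdhg*, it was 52936 bp at *Pcdhga1* (37661793), 7690 bp at *Pcdhga6* and 5639 bp at *Pcdhgb4*, the neighbours of *Pcdhga7*. The member without a call nearest to a peak was *Pcdhga12* (37765580). That peak, chr18:37768085-37768584, overlapped the end of its first exon, with its near edge 2505 bp and its centre 2754 bp downstream of the start. The start of the noncoding gene *Gm26672* lies within 500 bp of the same peak. No member lay near the 500 bp limit on the outer side, and the same 7 starts count at 250 and 1000 bp.

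**Figure D2:**
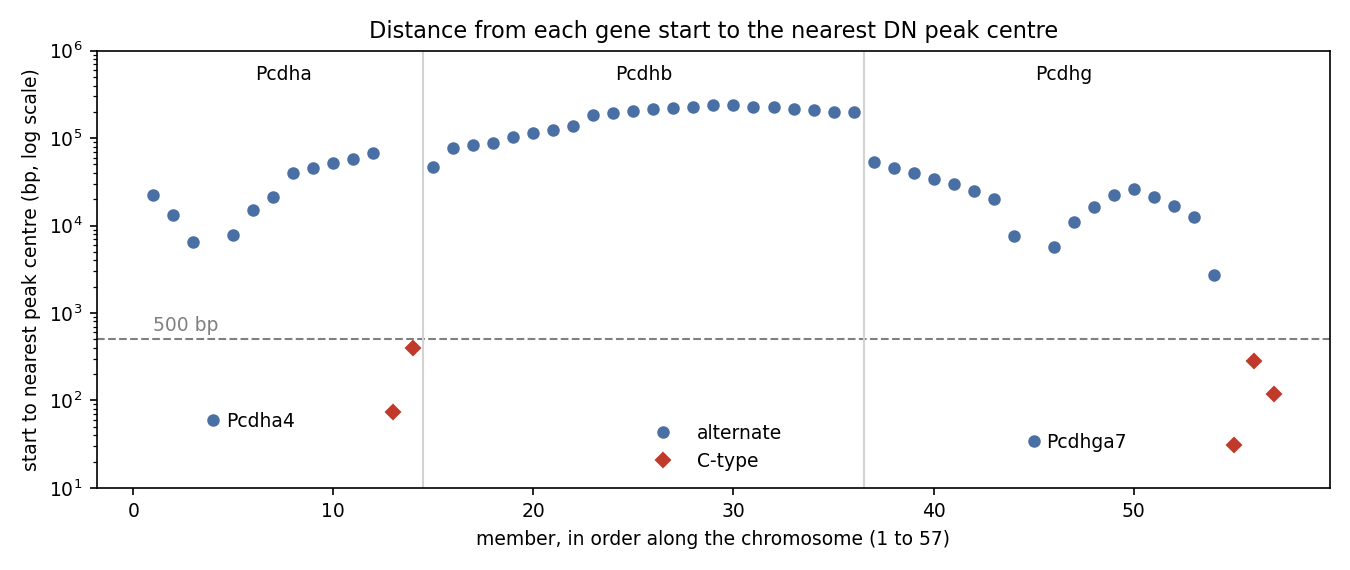
Each point is a member in its order along the chromosome, with the distance from its start to the nearest peak centre in bp on a log scale, C-type members as diamonds and the 500 bp limit dashed. All 5 C-type members, *Pcdha4* and *Pcdhga7* lie below the line, and the other 50 members lie between 2754 and 241189 bp.

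All 22 *Pcdhb* promoters fell in a single stretch without a peak, from 37218541 to 37714479 (495.9 kb). It also held the first 8 *Pcdhg* starts, so that 30 of the 57 members lay in it. Of the 55306 stretches between neighbouring peaks in the genome, 1.12% were longer, against a median of 10.74 kb, and 23 held more protein-coding starts than its 32. The other 2 starts belong to *Slc25a2*, a mitochondrial ornithine carrier, and *Taf7*, a subunit of the general transcription factor TFIID. *Taf7* had no peak despite a CpG ratio of 1.07 around its start, where the CpG ratio is the number of CpG dinucleotides over that expected from the base composition. The fullest stretch of the genome, with olfactory receptor genes, held 131 starts. A stretch of 136.8 kb between the *Pcdha4* and *Pcdhac1* peaks held 8 *Pcdha* starts, and a stretch of 53.1 kb after the *Pcdhga7* peak held 9 *Pcdhg* starts.

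The locus as a whole was not poor in peaks. From the first member start to the last member end (911.7 kb), 23 peaks were called, which is 25.2 per Mb (95% exact Poisson interval 15.99 to 37.9), beside 17.1 on chromosome 18 and 21.01 over all chromosomes. Of windows of the same length taken every 50 kb, 71.4% held fewer peaks, with a median of 12 and quartiles of 4 and 25. The peaks were unevenly placed. The *Pcdha* cluster held 7 in 257.5 kb, the interval from *Pcdha* to *Pcdhb* 2, the *Pcdhb* cluster 0 in 259.5 kb (upper bound 14.2 per Mb), the interval from *Pcdhb* to *Pcdhg* 0 in 137.3 kb, and the *Pcdhg* cluster 14 in 180.1 kb.

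Within *Pcdhg*, the part with alternate promoters, from *Pcdhga1* up to *Pcdhgc3*, held 3 peaks in 144.6 kb (20.7 per Mb, interval 4.28 to 60.6). The remaining 35.5 kb, from the *Pcdhgc3* start to the end of the cluster, held 12 (338 per Mb, interval 175 to 590). The peak at *Pcdhgc3* spans the border and is counted on both sides. The corresponding parts of *Pcdha* held 2 peaks in 159.8 kb before *Pcdhac1* and 6 in the 97.65 kb from it to the cluster end, again with 1 peak over the border. The 3 regions between and after the clusters and these 4 parts had GC contents from 39.8 to 49.7%, highest in the C-type end of *Pcdhg*, and the part of base composition in the peak counts was not tested.

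Away from member promoters, 3 peaks lay in the *Pcdha* constant region, at chr18:37176534-37177033, chr18:37178261-37178760 and chr18:37180248-37180747. All 3 fell in the intron between the second constant exon (37159265 to 37159353) and the last one (37184946 to 37187657). The middle one lies within 500 bp of the start of the noncoding gene *Gm10544*. None of the *Pcdha* constant exons was overlapped by a peak. In *Pcdhg*, the first constant exon (37825021 to 37825079) was overlapped by 1 peak, the second (37833265 to 37833353) by none and the last (37839903 to 37841873) by 2.

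A pair of peaks lay in the interval between *Pcdha* and *Pcdhb*, at chr18:37217150-37217649 and chr18:37218041-37218540. Their centres were 29.7 and 30.6 kb beyond the *Pcdha* end and 47.5 and 46.7 kb before *Pcdhb1*. The annotation places them in introns only of 3 read-through genes, *Gm42416*, *Gm37013* and *Gm37388*. They were the last calls before the 495.9-kb stretch that contains *Pcdhb*. As background, *Pcdha* promoters are known to be served by an enhancer in the constant-exon intron and by another downstream of the cluster with CTCF sites. The peak list carries no enhancer names, and whether these peaks act as enhancers was not tested.

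Downstream of *Pcdhg*, 300 kb held 49 peaks (163 per Mb), and 99.4% of windows of that length held fewer, with a median of 3. Of these, 4 were at starts of other protein-coding genes, 8 in exons, 18 in introns and 19 intergenic. The centres of the first 2 lay 0.256 and 0.941 kb beyond the last constant exon, between *Pcdhg* and the end of *Diaph1*. *Diaph1*, a formin that nucleates actin filaments, is transcribed towards *Pcdhg*, held 12 peaks along its 91.9 kb and had a peak at its start. Peaks also lay at the starts of *Hdac3*, a histone deacetylase, and of *Rell2*, a member of the RELT family, transcribed away from each other, and of *Fchsd1*, an F-BAR protein. *Arap3*, a GTPase-activating protein, had none at its start and 3 within the gene. The region thus mixes peaks of these genes with any that serve *Pcdhb* and *Pcdhg*, and the list does not tell them apart.

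**Figure D3:**
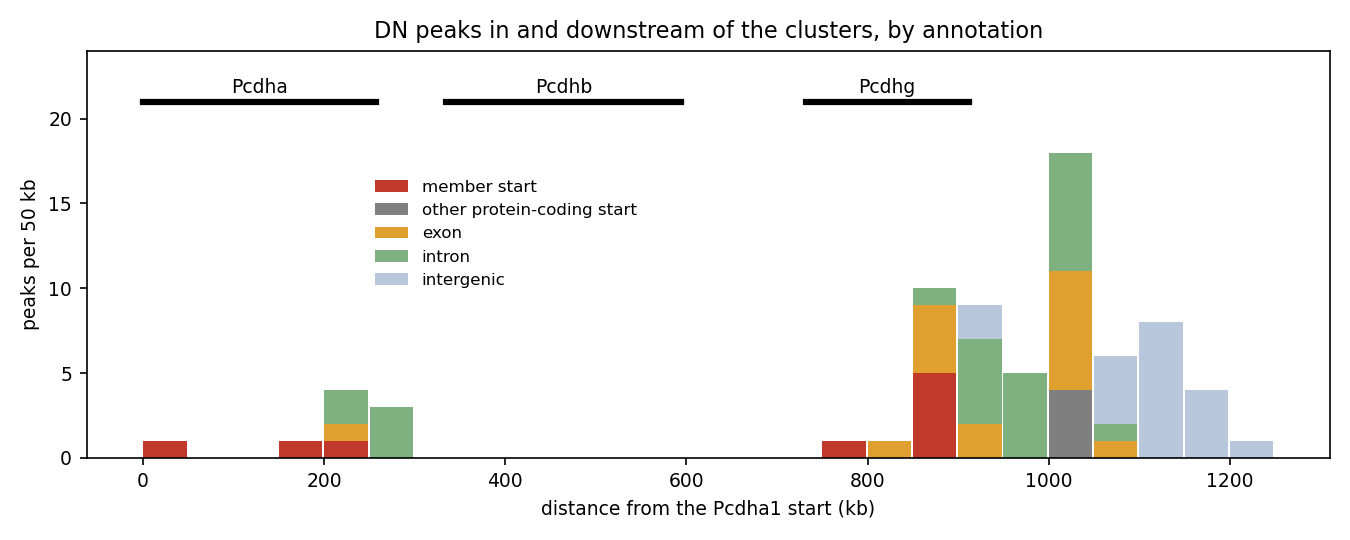
Bars count DN peak centres per 50 kb against the distance from the *Pcdha1* start in kb, coloured by annotation, with the 3 clusters as black lines; the last bin is cut short at the end of the 300 kb downstream. Bins over *Pcdhb* are empty, the bin with the C-type *Pcdhg* starts holds 10 peaks and the highest bin, downstream of the clusters, holds 18.

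Most clustered protocadherin promoters are known for a conserved sequence element with the core CGCT. Counting both strands from 250 bp before to 50 bp after the start, CGCT occurred in 55 of 57 member promoters (96.5%) against 67.5% of all protein-coding promoters, and in all 5 C-type and all 12 alternate *Pcdha* promoters. A word of 4 letters is common, so a match does not show that the whole element is present. CGCT was found in 75.1% of all DN peaks and in 21 of the 23 in the locus. The most common 7-letter words around the core differed between the clusters. TGTCGCT was found in 11 of 12 alternate *Pcdha* promoters, 1 of 22 *Pcdhb*, 3 of 18 alternate *Pcdhg* and none of the C-type promoters, and in 2.04% of all promoters. GGCGCTG was found in 17 of 22 *Pcdhb* promoters, in 2 C-type ones and in none of the alternate *Pcdha* or *Pcdhg* promoters (8.56% of all). CGCTGTT was found in 14 of 18 alternate *Pcdhg* promoters, 2 alternate *Pcdha*, 2 *Pcdhb* and 1 C-type promoter (2.09% of all). These words were chosen because they were the most common, or tied for it, in their group, so their shares are descriptions, and a match of letters is not a bound site.

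A 12-letter CTCF consensus with at most 1 mismatch matched none of the 57 member promoters (upper limit 6.27%), against 4.8% of all promoters, and matched 3 of the 23 locus peaks (13.0%) against 17.9% of all DN peaks. The 3 were both peaks between *Pcdha* and *Pcdhb*, the first of them without a mismatch, and the peak chr18:37841310-37841809 in the last *Pcdhg* constant exon. All 3 matches were on the minus strand, opposite to the direction in which the clusters are transcribed. The count depends on the mismatches allowed: with 2, the consensus matched 16 member promoters (28.1%), beside 31.1% of all promoters. The absence of a match says only that these letters are not in the window.

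GC content moved with the calls. Within 500 bp of the start, the C-type members had GC contents from 50.5 to 58.0% with a median of 55.8%, and the 50 alternate members without a peak from 33.8 to 49.95% with a median of 44.3%. *Pcdha4* and *Pcdhga7* were not set apart by this, with 46.05 and 45.85%. The CpG ratio separated the classes less. It was 0.233 to 0.797 in the C-type members, lowest in *Pcdhgc5*, 0.683 in *Pcdha4*, 0.592 in *Pcdhga7* and 0.158 to 0.864 in the alternate members without a peak. The *Pcdhb* genes were poorest in CpG, with a median of 0.378.

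Among other protein-coding starts with a CpG ratio under 0.5 and a GC content under 50%, 438 of 6355 (6.89%) had a peak, and none of the 24 alternate members in that range did, 21 of them *Pcdhb*. At a CpG ratio of 0.5 or more and a GC content under 50%, 365 of 544 other starts (67.1%) had a peak but 2 of 28 alternate members (7.14%), which were all 12 alternate *Pcdha*, 15 *Pcdhg* and 1 *Pcdhb*. At a CpG ratio of 0.5 or more and a GC content of 50% or more, 86.1% of other starts and all 4 C-type members had one. The fifth C-type member, *Pcdhgc5*, had its peaks at a CpG ratio under 0.5, where 14.1% of other starts had one at any GC content. That share includes the starts under 50% GC, with 6.89%, whereas *Pcdhgc5* had a GC content of 52.75%. The ranges were chosen after the values were seen. The part of base composition in the calls was not tested.

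**Figure D4:**
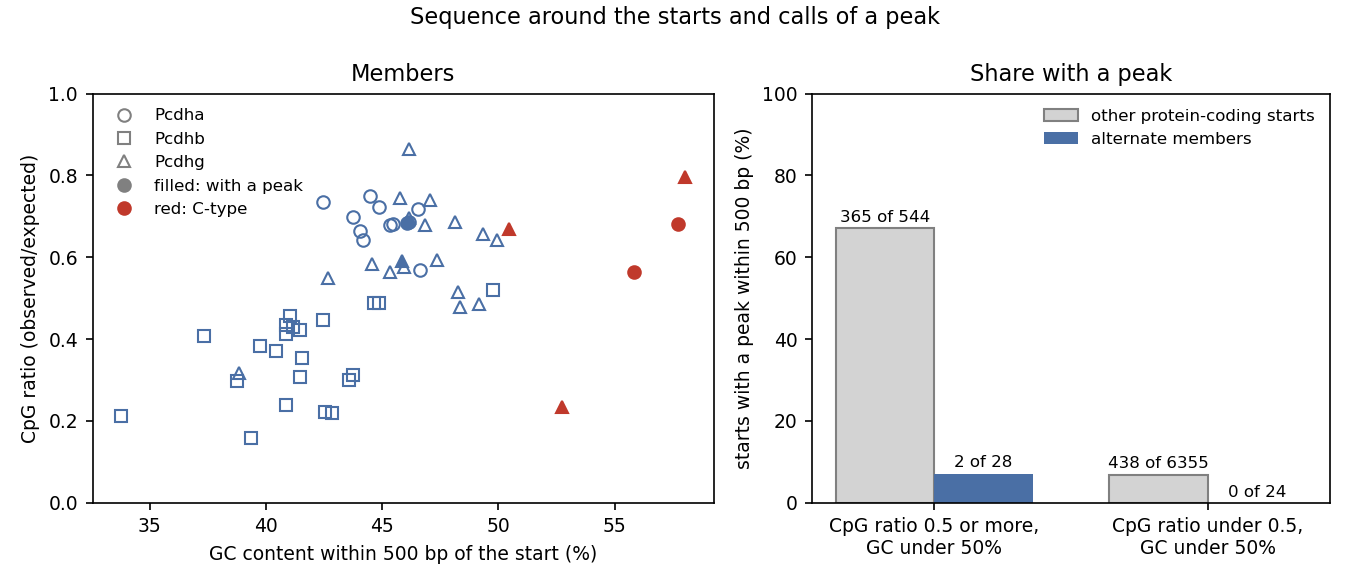
Left, the CpG ratio of each member against the GC content within 500 bp of its start in percent, with filled symbols for members with a peak and C-type members in red; right, bars from 0 give the percentage of starts with a peak for other protein-coding genes and for alternate members in 2 ranges of these values. The C-type members lie at 50.5% GC or more, and in the range with a CpG ratio of 0.5 or more the bars stand at 67.1% and 7.14%.

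Near-identical paralogs can lose reads that map to several places. The share of 50-letter words around the start that occur once in the genome was 100% for the 5 C-type members and 74.4 to 100% for the alternate ones, with a median of 100% for *Pcdhb* and alternate *Pcdhg* and 84.6% for alternate *Pcdha*. Of the 37 alternate members with a share of at least 90%, 1 (2.70%) had a peak, compared with 58.1% of the other starts at that share. That share was reached by 19 of 22 *Pcdhb*, 16 of 18 alternate *Pcdhg* and 2 of 12 alternate *Pcdha* starts, so that the count says little about *Pcdha*. The part of read mapping in the calls was not tested.

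Other families gave a scale for these counts. Of 12 non-clustered protocadherins, which are encoded by separate genes with promoters of their own, 11 had a peak at the start (91.7%, interval 61.5 to 99.8%), with a median CpG ratio of 0.665, and the exception was *Pcdh12*, known from endothelial cells. Of 23 classical and related cadherins, calcium-dependent adhesion molecules, 12 did (52.2%, interval 30.6 to 73.2%), close to the 52.4% of all protein-coding genes. *Cdh2*, the neural N-cadherin, was among the 12. The *Ugt1a* genes, glucuronidating enzymes with the same layout of alternate first exons on shared constant exons, had 0 of 9, which allows a share of up to 33.6%, and their median CpG ratio was 0.166. The clustered *Hist1* histone genes had 36 of 54 (66.7%, interval 52.5 to 78.9%), with a median CpG ratio of 0.876 and a median share of unique words of 69.2%. Of the 7 *Hist1* starts with a share of at least 90%, 28.6% had a peak.

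**Figure D5:**
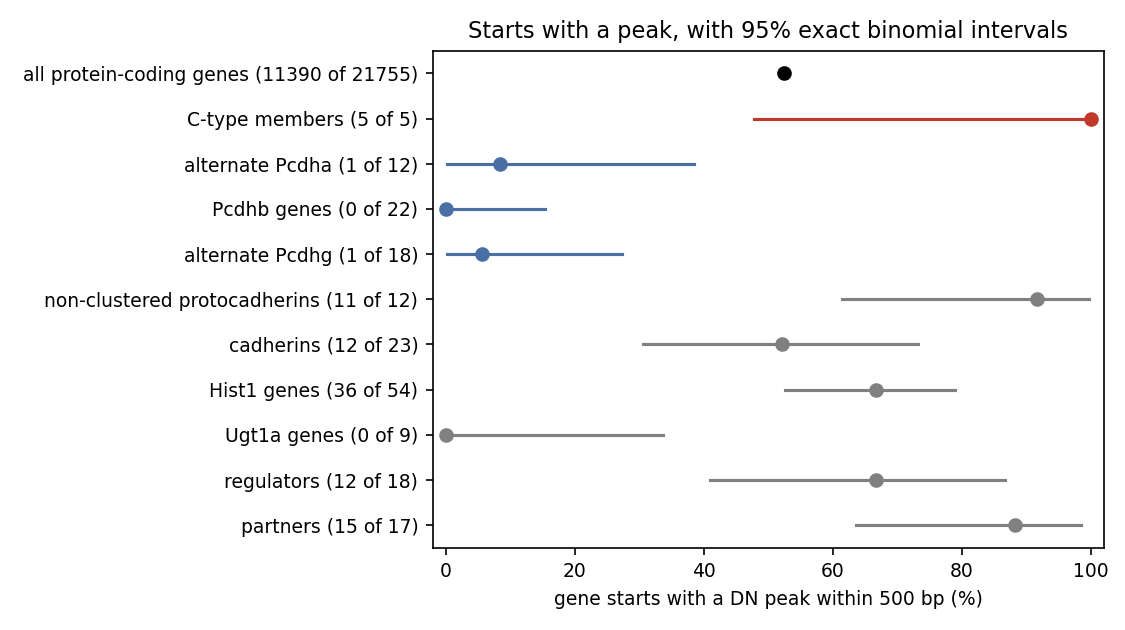
Points give the percentage of gene starts with a DN peak within 500 bp for all protein-coding genes, the promoter classes of the clustered protocadherins and the comparison families, and lines give 95% exact binomial intervals. The intervals of the 3 alternate classes end at 38.5% or lower, below the 52.4% of all genes.

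Genes known to act on or with the clustered protocadherins were counted in the same way. Of 18 regulators, 12 had a peak at the outermost start (66.7%, interval 41.0 to 86.7%), and the interval includes the 52.4% of all protein-coding genes. Among the 12 were *Ctcf* and the cohesin genes *Rad21*, *Smc1a*, *Smc3* and *Stag2*. *Nipbl* and *Mau2* (cohesin loading), *Wapl* (cohesin release), *Smchd1* and *Setdb1* (silencing of clustered protocadherins) and *Dnmt3a* (DNA methylation) had a peak as well. *Wiz* also had one. *Dnmt1*, *Dnmt3b*, *Stag1*, *Tet1*, *Tet2* and *Tet3* had none there, and all 18 had a peak when the start of any annotated transcript was used, as did 57.4% of all genes. Of 17 partners of the protocadherin proteins, such as *Ptk2*, a kinase bound by the constant domains, and the WAVE complex genes *Wasf1*, *Cyfip2* and *Nckap1*, 15 had a peak at the start (88.2%, interval 63.6 to 98.5%, against 52.4% of all genes). Their median CpG ratio was 0.774, and 87.5% of protein-coding starts other than members with a ratio from 0.7 to 0.8 had a peak. The kinases *Fyn* and *Ptk2b* had none there.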

How the data were processed

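Each line of the deposited list is the position of a peak in bp, without a score. Per the study's methods, the authors mapped reads of both VTA libraries to mm10 with Cell Ranger and used ArchR to remove doublets and low-quality nuclei, select the DN cluster and call peaks. Reads, counts and depth per library were not used here, and the 46C library is not analysed here. The methods also describe a later filter that kept peaks found in a minimum share of single nuclei. Whether the deposited list had passed it is not given in the sources used here, and if it had, a site open in fewer nuclei has no peak.

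Starts of peaks were read as counted from 0. A gene start, the outermost one in GENCODE M21, had a peak when at least 1 bp of a peak lay within 500 bp. Shares carry 95% Clopper-Pearson intervals and densities exact Poisson intervals. No p-value was computed, because the list pools both libraries. Sequence came from GRCm38, whose chromosomes are those of mm10, and no sequence of the locus is printed. Scripts ran under Python 3.11.15 with numpy 2.4.6, pandas 2.3.3 and scipy 1.17.1, and were tested on simulated data. The members, lists and the rule for named genes were chosen with earlier results of these data known. That rule took the C-type members, the first and last of each cluster, members that differ in call from most of their cluster, those nearest to 500 bp, and other protein-coding genes in or downstream of the clusters. *Pcdha3*, *Pcdha5*, *Pcdha12*, *Pcdhb15*, *Pcdhga6*, *Pcdhgb4* and the genes named from the comparison lists were chosen after their values were seen. Ranges of GC content and CpG ratio and the 7-letter words were also set after the values were seen. Alternatives changed the distance, the overlap, the start and the mismatches allowed.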

Additional observations from a re-analysis of the deposited data

How the results depend on the processing

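Over 57 recomputed values, 53 stayed within the 95% interval of the value given. The counts of starts with a peak in all members, in each cluster and in the C-type and alternate classes did not change when peak centres, 250 bp, 1000 bp or the start of any annotated transcript was used, whereas the share over all genes moved between 50.4 and 57.4%. The 4 values outside their interval were the density of the locus, 59.4 per Mb with the 300 kb downstream, the CTCF consensus with at most 2 mismatches, in 28.1% of member promoters and 43.5% of locus peaks (31.1% of all promoters and 54.4% of all peaks), and the regulators with a peak, 100% with any transcript start. The alternatives for the comparison lists and for the CpG range were chosen after seeing the data: with a CpG ratio of 0.4 or more, 5.13% of alternate members and 54.8% of other starts at low GC had a peak, and with 0.6 or more, 5.26 and 73.7%.

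No paired analysis was possible because a single list pools both libraries. For the same reason no library was left out. No stricter threshold was run, since the list holds no count or score per peak. Weakly open sites under the authors' threshold are not in it. The 0 of 22 *Pcdhb* starts allows a share of up to 15.4%.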

Other observations

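The clusters differed in how densely their starts are packed. The median distance between neighbouring starts was 7.32 kb in *Pcdha*, 7.78 kb in *Pcdhb* and 5.35 kb in *Pcdhg*. The widest step between neighbours was 69.9 kb in *Pcdha*, before *Pcdhac1*, 45.7 kb in *Pcdhb*, before *Pcdhb9*, and 40.8 kb in *Pcdhg*, before *Pcdhgc3*. In *Pcdha* and *Pcdhg* the widest step thus separated the first C-type start, which had a peak, from the alternate starts, and in *Pcdhb* no peak lay in it.

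Of 2 peaks in the last *Pcdhg* constant exon, chr18:37840783-37841282 had a CpG ratio of 0.0606, the lowest of the 23 peaks in the locus, and held no CGCT. The peak over *Pcdhac2* had the highest GC content of the 23, 71.8%. Both peaks between *Pcdha* and *Pcdhb* had similar GC contents, 48 and 47%, and CpG ratios of 0.419 and 0.846.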
